A study of Homo sapiens with 4 samples.

Results

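The genes described here are 32 markers of the differentiated intestinal epithelium, chosen by symbol, out of 19974 protein-coding genes on chromosomes 1 to 22 and X. They comprise 14 absorptive genes, 9 goblet and secretory genes, 3 enteroendocrine genes and 6 genes of the general intestinal surface. Open chromatin was mapped by ATAC-seq, where a transposase inserts adapters into accessible DNA, in HCT116, an established human colorectal carcinoma line. The FOXD2 group (2 libraries) carried lentiviral pSin holding the full-length CDS of the forkhead factor gene FOXD2, and the control group (2 libraries) carried the empty pSin vector. Both groups were stable transduced populations kept in puromycin at 5 ug/ml, and the labels name neither separate cultures nor batches, so the spread between replicates may be technical. The question was which lineages' genes are open in HCT116 and whether their open sites differ when FOXD2 is supplied.

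In the intestine, stem cells at the crypt base give rise to absorptive enterocytes, which take up nutrients and salts through a brush border, and to secretory cells. The transcription factor ATOH1 commits progenitors to the secretory fate. SPDEF then drives goblet cell maturation, while NEUROG3 and NEUROD1 drive enteroendocrine differentiation. HCT116 is known as a poorly differentiated line. In ATAC-seq of a bulk culture, opening in fewer cells and weaker opening in each cell cannot be told apart.

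The readout was the authors' interval list of each library. Intervals of the 4 lists that overlapped were merged into regions, and a region belonged to a gene when it lay inside that gene or had it as nearest protein-coding gene within 100 kb. In this way 162 of 122856 regions fell to the 32 genes, 64 inside them and 98 outside at a median distance of 11188 bp. FABP1, a fatty acid binding protein gene, had none, and no region was assigned to more than 1 of the 32 genes. The lists held 82739 and 64675 intervals in FOXD2 replicates 1 and 2, against 77752 and 72796 in control replicates 1 and 2, and read depth is unknown. Promoter intervals were in all 4 libraries at 9 of 9 colorectal epithelial markers, among them CDX1, CDX2 and EPCAM, and at 8 of 8 ubiquitous genes. They were in all 4 libraries at 0 of 6 leukocyte, 0 of 4 endothelial, 0 of 4 hepatocyte, 0 of 4 gastric and 0 of 3 Paneth cell markers, and at 2 of 5 fibroblast, 3 of 4 neural and 3 of 5 tuft cell markers. With 2 libraries against 2, the two-sided exact permutation test cannot give a p below 0.333, so the groups are compared by the values of each library and no p is given.

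The 7 sequences below are the 250 bases before the 5′ end of genes on which the results turn, from RefSeq (GRCh38.p14, the same build as hg38), written 5′ to 3′ on the gene's strand. Capitals mark CpG dinucleotides. DPP4 and ATOH1 were open in all 4 libraries and are CpG-rich, and NEUROD1 is as rich but had no promoter interval. LGALS4 was open in all 4 libraries and KRT20 in 3 with few CpGs, and FABP1 and MUC13 were open in none.
DPP4 (chr2:162074216-162074465, minus strand): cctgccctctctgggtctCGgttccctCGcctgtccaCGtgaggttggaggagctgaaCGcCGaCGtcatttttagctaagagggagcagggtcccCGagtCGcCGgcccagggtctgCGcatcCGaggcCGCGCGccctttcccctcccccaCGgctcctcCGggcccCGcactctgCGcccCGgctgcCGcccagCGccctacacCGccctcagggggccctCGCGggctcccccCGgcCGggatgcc
ATOH1 (chr4:93828503-93828752, plus strand): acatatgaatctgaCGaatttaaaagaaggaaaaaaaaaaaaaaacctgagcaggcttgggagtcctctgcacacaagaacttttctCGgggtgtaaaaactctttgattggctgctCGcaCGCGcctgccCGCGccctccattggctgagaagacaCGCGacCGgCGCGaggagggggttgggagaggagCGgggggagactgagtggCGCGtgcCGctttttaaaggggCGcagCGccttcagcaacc
NEUROD1 (chr2:181680518-181680767, minus strand): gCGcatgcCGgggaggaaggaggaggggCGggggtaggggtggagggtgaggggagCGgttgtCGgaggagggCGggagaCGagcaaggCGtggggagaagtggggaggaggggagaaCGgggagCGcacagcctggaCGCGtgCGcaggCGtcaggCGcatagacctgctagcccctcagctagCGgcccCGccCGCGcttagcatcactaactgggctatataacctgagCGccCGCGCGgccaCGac
LGALS4 (chr19:38812946-38813195, minus strand): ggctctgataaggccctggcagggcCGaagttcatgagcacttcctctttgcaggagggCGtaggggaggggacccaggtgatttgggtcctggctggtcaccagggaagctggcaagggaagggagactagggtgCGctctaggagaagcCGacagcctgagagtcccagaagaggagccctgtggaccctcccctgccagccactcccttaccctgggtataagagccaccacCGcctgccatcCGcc
KRT20 (chr17:40885243-40885492, minus strand): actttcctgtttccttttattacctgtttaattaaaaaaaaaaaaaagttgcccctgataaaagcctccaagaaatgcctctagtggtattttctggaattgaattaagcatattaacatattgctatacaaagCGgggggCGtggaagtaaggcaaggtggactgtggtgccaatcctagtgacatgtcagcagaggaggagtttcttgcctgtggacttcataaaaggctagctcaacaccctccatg
FABP1 (chr2:88128063-88128312, minus strand): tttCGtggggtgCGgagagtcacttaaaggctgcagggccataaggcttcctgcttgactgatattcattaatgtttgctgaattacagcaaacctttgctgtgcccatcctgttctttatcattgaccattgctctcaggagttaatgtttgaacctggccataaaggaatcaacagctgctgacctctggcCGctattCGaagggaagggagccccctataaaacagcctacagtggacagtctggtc
MUC13 (chr3:124934752-124935001, minus strand): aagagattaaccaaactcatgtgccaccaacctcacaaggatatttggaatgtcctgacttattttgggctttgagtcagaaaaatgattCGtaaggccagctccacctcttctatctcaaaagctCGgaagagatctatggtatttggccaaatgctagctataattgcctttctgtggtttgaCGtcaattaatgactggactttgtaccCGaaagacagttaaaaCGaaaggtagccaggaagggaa

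Most of these marker genes lacked a steady open promoter. A promoter peak, meaning an interval within 1000 bp of the gene's 5′ end, or of either gene end where the reference table gives no strand, was present in all 4 libraries at 8 of the 32 genes (25.0%). The same held for 66.0% of all protein-coding genes (13180 of 19974). In no library was there a promoter peak at 14 of the 32 genes (43.8%), against 23.3% of all genes. The remaining 10 had one in 1 to 3 libraries. Among the 21 genes with a known strand, 5 (23.8%) were open in all 4 libraries, against 68.1% of all such genes, and among the 11 without, 3 (27.3%), against 58.1%. By library, the genes with a promoter peak numbered 11 and 12 in the FOXD2 libraries and 13 and 13 in the controls. With a window of 2000 bp the count open in all 4 libraries was 13.

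**Figure D1:**
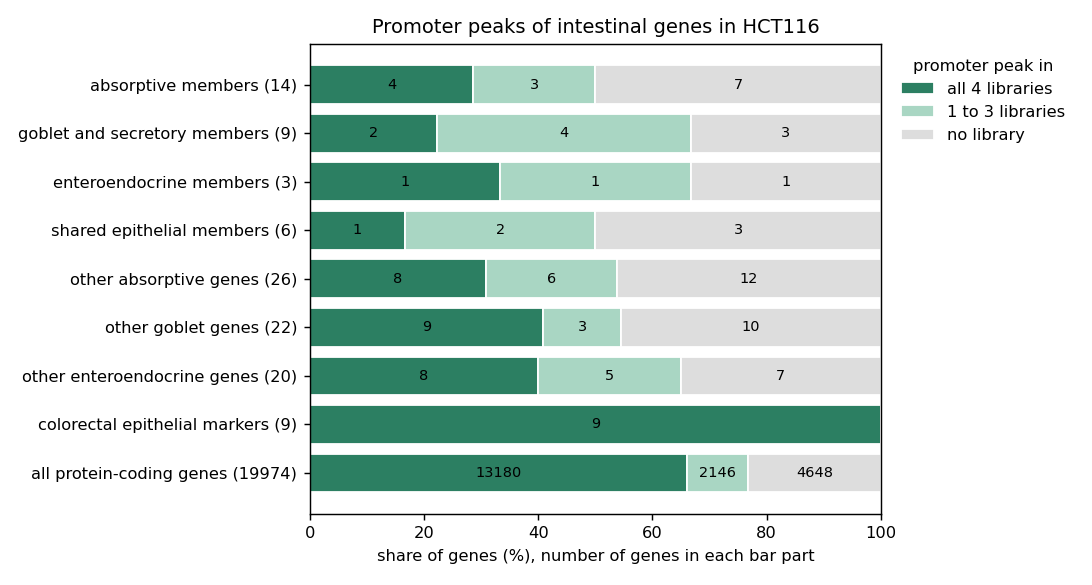
Share of genes (x axis, percent) with a promoter peak in all 4 libraries, in 1 to 3 or in none, for the 4 lineages of members, 3 lists of other intestinal genes, the epithelial markers and all protein-coding genes, with the number of genes in each bar part. Each lineage of members had at least 1 gene open in all 4 libraries, and its share lay below the 66.0% of all genes.

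These promoters also held few CpG dinucleotides, and the part of that in the low share was not tested. The 22 promoter sequences available for 21 of the 32 genes had a median of 5.5 CpGs in the 250 bases before the 5′ end, against 16 over 22132 promoters of protein-coding genes. Of all promoters with 10 or more CpGs, 85.1% had a peak in all 4 libraries, against 32% of those with 3 to 9 and 9.37% of those with 0 to 2. Of the 6 member promoters with 10 or more CpGs, 3 had a peak in all 4 libraries, those of DPP4 (26 CpGs), ATOH1 (18) and CHGA (21). The upstream promoter of ANPEP (26) had a peak in 3 libraries, that of NEUROG3 (25) in 1 and that of NEUROD1 (24) in none. Of the 11 with 3 to 9 CpGs, 2 had a peak in all 4 libraries, LGALS4 with 6 and FCGBP with 4. Of the 5 with 0 to 2 CpGs, none had a peak in all 4 libraries, KRT20 had one in 3 and CEACAM5 in 2. The forkhead core TGTTTAC, searched on both strands, was in 0 of the 22 sequences and in 2.45% of all promoters. The TATA box TATAAA, searched on the gene's strand, was in those of FABP1 and CEACAM6 and in 6.16% of all promoters.

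Among the absorptive genes, the promoter window held an interval in all 4 libraries at APOA1, APOB, CA2 and DPP4, in some at ANPEP, VIL1 and ALPI and in none at 7 genes. For APOA1, APOB and CA2 the table gives no strand, so the window covers both gene ends. At CA2, a carbonic anhydrase gene (chromosome 8, 85464007 to 85481493), the interval over the lower-coordinate end had an authors' fold enrichment over local background of 9.19 and 8.57 in FOXD2 replicates 1 and 2, against 10.6 and 9.89 in control replicates 1 and 2. At APOA1, which encodes the main protein of high-density lipoprotein (chromosome 11, 116835751 to 116837622), fold enrichment was 11.6 and 8.96 in the FOXD2 libraries, against 10.7 and 9.41 in the controls. In each library these were the intervals with the highest fold in the promoter windows of the 32 genes. The APOA1 interval covered the lower-coordinate end of the gene and reached into the antisense gene APOA1-AS. It cannot be assigned to either gene, and APOA1 is counted as open by the rule alone. The region ended more than 1000 bp short of the higher-coordinate end, so APOA1 would not count as open if that is its 5′ end. APOB, which encodes the structural protein of chylomicrons, had a 1348 bp region over its higher-coordinate end (chromosome 2, 21042932 to 21044279), with a fold enrichment of 6.27 and 7.31 in the FOXD2 libraries, against 5.64 and 6.04 in the controls. Both FOXD2 values lay above both control values there, and the gap between the groups was smaller than that between the FOXD2 libraries.

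The other absorptive genes were open in some libraries or in none at their promoters. ANPEP, the brush border aminopeptidase N gene, had a promoter interval in FOXD2 replicate 2 with a fold of 4.42 and none in FOXD2 replicate 1, against 4.44 and 4.18 in the controls. VIL1, which encodes the microvillar actin bundler villin, had one in FOXD2 replicate 2 with a fold of 4.00 and in control replicate 2 with a fold of 4.73. ALPI, the intestinal alkaline phosphatase gene, had one in control replicate 2 with a fold of 3.29. The folds of these partial peaks lay below the median of their lists, 5.30 and 5.52 in the FOXD2 libraries and 5.67 and 5.78 in the controls. The 7 genes with no promoter interval were FABP1 and FABP2, the sucrase-isomaltase gene SI, the apolipoprotein gene APOA4, the carbonic anhydrase gene CA1, the colonic chloride exchanger gene SLC26A3 and the meprin subunit gene MEP1A.

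Among the goblet and secretory genes, only the promoters of ATOH1 and FCGBP carried a peak in all 4 libraries. At ATOH1 (chromosome 4, 93828753 to 93830964) fold enrichment was 8.33 and 4.4 in the FOXD2 libraries, against 6.03 and 7.55 in the controls. The highest and the lowest value were thus both in FOXD2 libraries, and the groups overlapped. At FCGBP, which encodes a protein of the mucus gel (chromosome 19, 39863323 to 39934634), the promoter interval was weak, with 5.42 and 4.38 in the FOXD2 libraries, against 4.1 and 5.97 in the controls. SPDEF had a promoter interval in FOXD2 replicate 1 with a fold of 3.81 and in control replicate 1 with a fold of 3.90. TFF2 (4.32) and TFF3 (3.46), trefoil peptide genes, had one in control replicate 1 alone, and the gastric-type mucin gene MUC5AC (2.91) in control replicate 2 alone. For TFF2, TFF3 and MUC5AC the table gives no strand, so an interval may lie at the 3′ end. That of TFF3 lay 749 bp below the lower-coordinate end. MUC2, which encodes the main gel-forming mucin of the gut, the trefoil gene TFF1 and AGR2, whose product is needed for mucin folding, had none.

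In the enteroendocrine group the effector gene was open and the fate regulators were mostly not. CHGA, which encodes the granule protein chromogranin A (chromosome 14, 92922664 to 92935285), had a promoter fold of 5.64 and 5.83 in the FOXD2 libraries, against 6.73 and 4.65 in the controls. The groups overlapped. NEUROG3 had a single interval, in FOXD2 replicate 1, with a fold of 3.42. NEUROD1 had no interval within 1000 bp of its 5′ end, and the nearest region in all 4 libraries lay 2782 bp upstream of it. That region had a fold of 5.84 and 6.71 in the FOXD2 libraries, against 7.09 and 6.17 in the controls.

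Among the general surface markers, LGALS4, KRT20 and CEACAM5 had promoter intervals and CEACAM6, MUC13 and CDH17 had none. The galectin gene LGALS4 had weak intervals with a fold of 3.47 and 3.97 in the FOXD2 libraries, against 3.30 and 5.15 in the controls. KRT20, the keratin of mature surface cells, had a promoter fold of 4.58 in FOXD2 replicate 2 and no interval in FOXD2 replicate 1, against 6.34 and 7.37 in the controls. Both control values were thus higher than the FOXD2 one. The interval of FOXD2 replicate 2 had a −log10 q of 4.85, so it dropped out when a −log10 q of 5 was required, and KRT20 was then open in both controls and neither FOXD2 library, as it was with FOXD2 replicate 2 left out. CEACAM5, the carcinoembryonic antigen gene, had an interval inside the window in both FOXD2 libraries and in neither control, as described below.

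**Figure D2:**
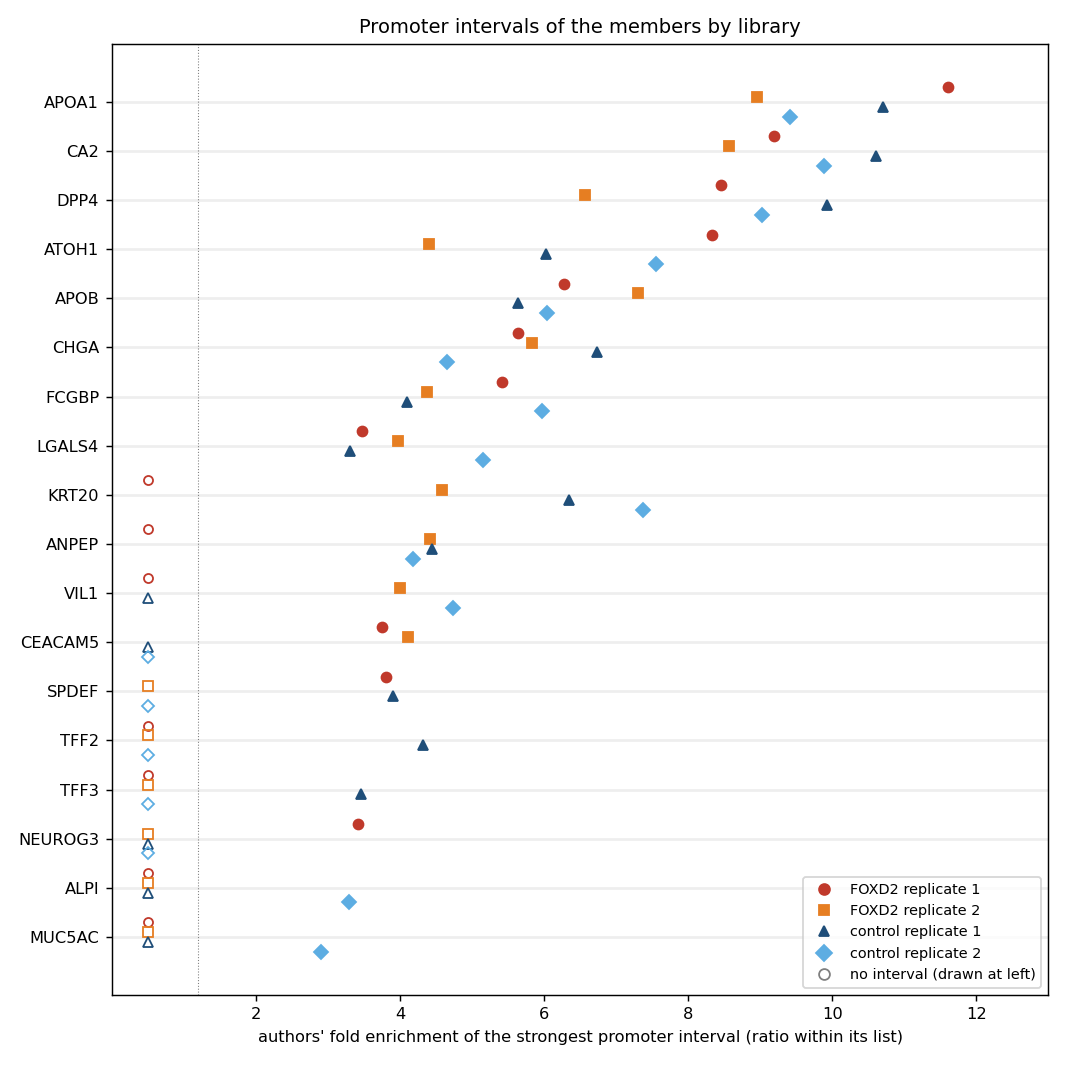
Authors' fold enrichment (x axis, a ratio within each list) of the strongest promoter interval of the 18 members that had one, by library, with open symbols at the left for libraries without an interval. The 8 genes open in all 4 libraries stand at the top, APOA1 and CA2 highest, and most of the others had values under 5. For APOA1 and CA2 either gene end counts, and the APOA1 interval lies at the lower-coordinate end, which may not be the 5′ end.

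The share of regions common to all libraries varied between the lineages, and its difference from that of other genes was not tested. Of the 162 regions, 36 (22.2%) were in all 4 libraries, against 34.1% of all regions assigned to a protein-coding gene, and 76 (46.9%) were in a single library, against 39.5%. The share in all 4 libraries was 17.7% at absorptive genes (11 of 62), 16.9% at goblet genes (10 of 59), 18.2% at enteroendocrine genes (2 of 11) and 43.3% at the surface genes (13 of 30). CDH17, the liver-intestine cadherin gene, held 6 of these 13. Shared regions were wider (median 652.5 bp) than those in a single library (230 bp). Their median rank percentile by −log10 q among the 39933 regions in all 4 lists, where 100 is strongest, was 37.2 and 43.5 in the FOXD2 libraries, against 42.3 and 44.9 in the controls.

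The number of open regions at these genes was 87 and 67 in FOXD2 replicates 1 and 2, against 102 and 83 in control replicates 1 and 2. This was 0.108% and 0.107% of all regions of the FOXD2 lists, against 0.135% and 0.119% of those of the controls. Both FOXD2 shares thus lay below both control shares, with no test. The ratio of the FOXD2 mean (77.0 regions) to the control mean (92.5) was 0.832, against 0.982 over all regions, and it was 0.881 with lists of equal length and between 0.720 and 0.935 when any 1 library was left out. At 5 genes both FOXD2 libraries had fewer regions than both controls, 16.1% of the 31 genes with a region, against 8.58% of all genes with a region. NEUROD1 had 2 and 2 regions in the FOXD2 libraries, against 7 and 5 in the controls. FCGBP had 6 and 6 against 8 and 8, and MUC5AC 3 and 3 against 5 and 5. SPDEF had 2 and 0 against 5 and 3, and TFF2 1 and 2 against 4 and 3. All but NEUROD1 are goblet or mucus genes by the lineages used here. At FCGBP and MUC5AC no single region was in both controls and neither FOXD2 library, so the lower counts there come from different regions. NEUROD1 had 2 such regions, and SPDEF and TFF2 had 1 each. At 1 gene (3.23%), CEACAM5, both FOXD2 libraries had more regions, 2 and 2 against 1 and 1, as did 7.27% of all genes.

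**Figure D3:**
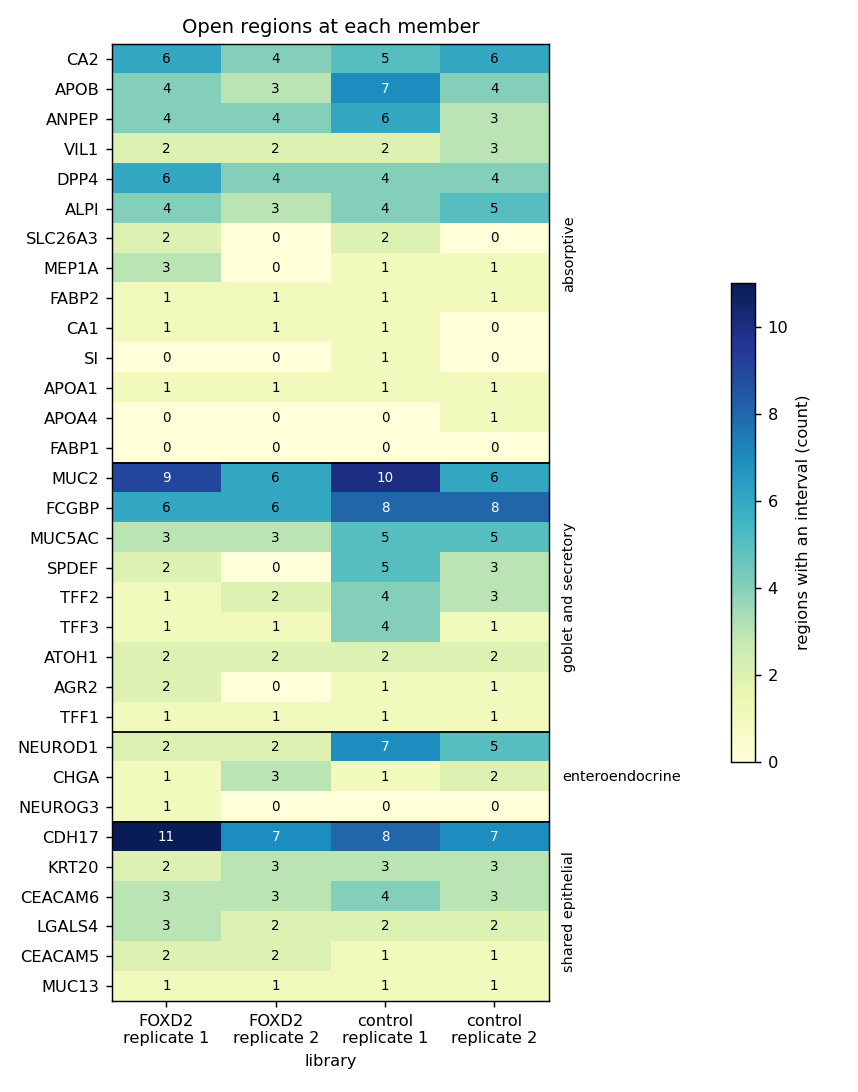
Number of regions with an interval in each library (columns, FOXD2 libraries first) at each of the 32 members (rows, grouped by lineage), with darker cells for more regions. MUC2, FCGBP and CDH17 have the most, FABP1 has none, and the NEUROD1 row is lighter in both FOXD2 libraries (2 and 2 regions) than in both controls (7 and 5).

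Regions present in both FOXD2 libraries and neither control, called gained, numbered 4 at these genes, and regions in both controls and neither FOXD2 library, called lost, numbered 8. The shares were 2.47% gained and 4.94% lost, against 3.89% and 3.87% of all regions, so both lay near the background. The gained regions were at DPP4, CEACAM5, FABP2 and FCGBP, and the lost ones at NEUROD1 (2), VIL1, FABP2, ALPI, TFF2, SPDEF and ATOH1. Leaving out 1 library relaxes both definitions. Without control replicate 1, 7 regions were gained and 25 lost, with 6.91% and 14.4% of all regions gained and lost. Without control replicate 2, 4 were gained and 36 lost, with 6.18% and 17.0% of all regions. Without FOXD2 replicate 1, 13 were gained and 17 lost, with 12% and 10.3% of all regions. Without FOXD2 replicate 2 the balance turned, with 27 gained and 14 lost, and 19.5% and 5.93% of all regions. Of the 64 regions inside the genes, 1 was gained and 1 lost, and within 20 kb of the genes 4 were gained and 5 lost. The shares gained and lost among all regions inside genes or within 20 kb of them were not counted.

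DPP4, which encodes a brush border peptidase that cleaves incretin hormones (chromosome 2, 161992245 to 162074215), had a gained region and shared regions that ranked lower. Its gained region lay outside the gene, 11360 bp upstream of its 5′ end (chromosome 2, 162085575 to 162086046). It had a fold of 8.39 and a −log10 q of 16.0 in FOXD2 replicate 1, and 5.98 and 8.36 in FOXD2 replicate 2, and no interval in either control. The promoter region, in all 4 libraries, had a fold of 8.46 and 6.57 in the FOXD2 libraries, against 9.93 and 9.02 in the controls. Its rank percentile was 57.5 and 38.0 in the FOXD2 libraries, against 65.8 and 64.5 in the controls, so both FOXD2 libraries ranked lower and the groups did not overlap. A region inside the gene (162027693 to 162028127) likewise ranked at 22 and 9.71, against 28.8 and 54.5. Another shared region, 17107 bp upstream, stood at 37.6 and 22.7, against 35.8 and 46.5, where the groups overlapped.

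The CEACAM5 promoter differed by a short interval. The gained region (chromosome 19, 41707479 to 41707758) lay 868 bp upstream of the 5′ end, outside the gene body. Its interval had a fold of 3.75 in FOXD2 replicate 1 and 4.11 in FOXD2 replicate 2, with −log10 q of 7.22 and 9.99, and neither control had one. A stronger region next to it, 1323 bp upstream, was in all 4 libraries with a fold of 8.2 and 7.86 in the FOXD2 libraries, against 11.1 and 10.4 in the controls. Its rank percentile was 69.2 and 79.9 in the FOXD2 libraries, against 80.6 and 77.7 in the controls, which overlapped. A promoter peak was gained at this gene only, 1 of 32 (3.12%) against 0.436% of all genes, and lost at 0 of 32 against 0.866%. The gain at CEACAM5 held with any 1 library left out but depends on the window of 1000 bp. Its intervals lay beyond 500 bp of the 5′ end, and a window of 2000 bp takes in the stronger region of all 4 libraries. Lost promoter peaks appeared at ALPI and MUC5AC without control replicate 1 and at TFF2 and TFF3 without control replicate 2. They appeared at KRT20 and ANPEP without FOXD2 replicate 2. For MUC5AC, TFF2 and TFF3 either gene end counts, since no strand is given. NEUROG3 had a gained promoter peak without FOXD2 replicate 2. Leaving out 1 library relaxes the gained and lost definitions for promoters too, and the share of all genes called in these settings was not counted. With windows of 250 bp around the summits the gained region joined its neighbour and was no longer gained as a region, while the call within the promoter window remained. At the neighbouring CEACAM6, a related adhesion molecule gene, a shared region 8475 bp upstream ranked at 25.2 and 25.2 in the FOXD2 libraries, against 39.5 and 32.3 in the controls.

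NEUROD1 held 2 of the 8 lost regions, both far upstream of the gene (chromosome 2, 181668295 to 181680517). The region 85590 bp upstream (181766107 to 181766505) had a fold of 7.83 and 4.93 in control replicates 1 and 2, and the region 98094 bp upstream (181778611 to 181778925) had 4.86 and 4.32, with no interval in either FOXD2 library. Both are assigned to NEUROD1 only as the nearest protein-coding gene, and fall away at a distance of 20 kb. A region 34523 bp upstream was in FOXD2 replicate 1 with a fold of 7.04 and not in FOXD2 replicate 2, against 7.86 and 10.3 in the controls.

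**Figure D4:**
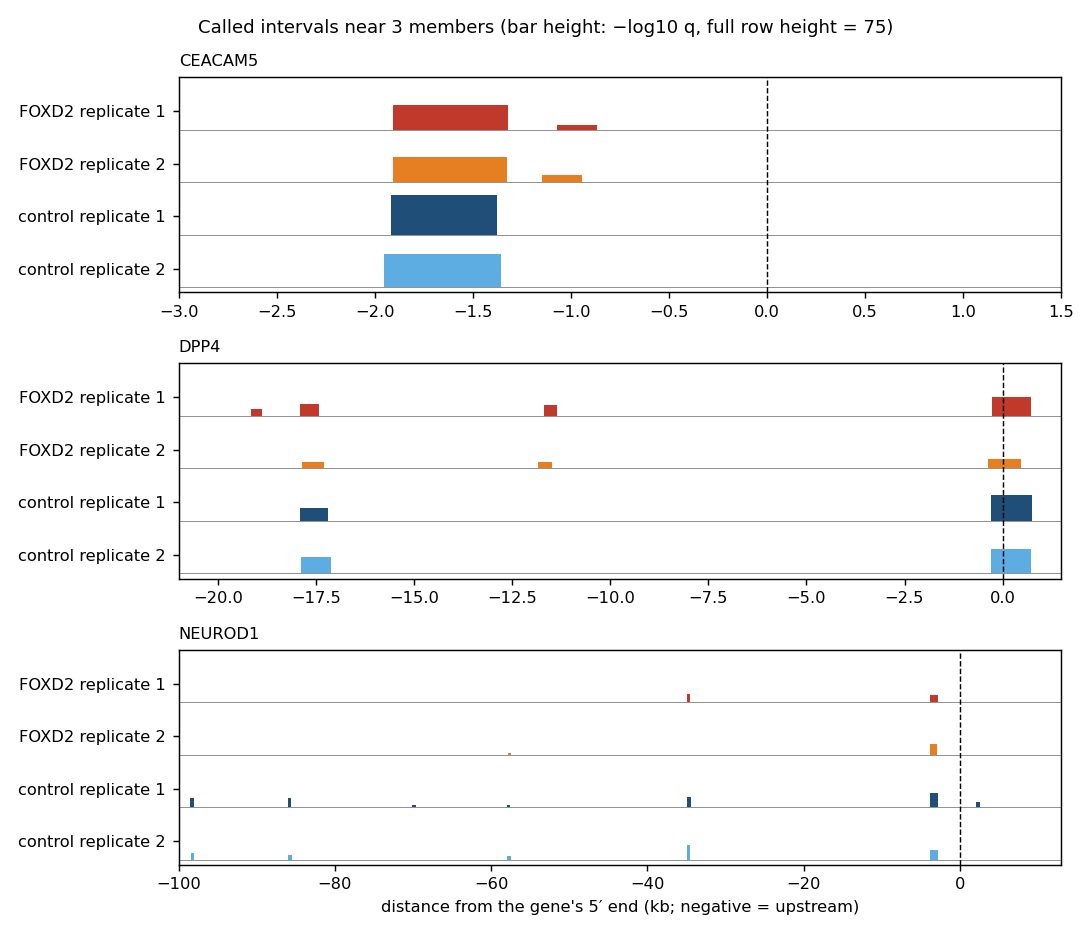
Called intervals at CEACAM5, DPP4 and NEUROD1 by library (rows, FOXD2 libraries above controls) against distance from the gene's 5′ end in kb, with bar height for −log10 q. The short interval of CEACAM5 about 1 kb upstream and that of DPP4 about 11 kb upstream appear only in FOXD2 rows, and the 2 leftmost intervals of NEUROD1 only in control rows.

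The other gained and lost regions were spread over several genes. FABP2, an intestinal fatty acid binding protein gene (chromosome 4, 119317250 to 119322138), had 1 of each. Its gained region, 14258 bp upstream, had a fold of 4.58 and 5.98 in the FOXD2 libraries, and its lost region, 2551 bp beyond the 3′ end, had 5.96 and 6.63 in the controls. The gained call ended when a −log10 q of 5 was required and with lists of equal length. The gained region of FCGBP lay inside the gene (chromosome 19, 39909525 to 39909852) with 5.08 and 4.12 in the FOXD2 libraries, a call that ended at a −log10 q of 5. For FCGBP the balance of gained over lost regions turned to −1 without control replicate 1, without control replicate 2 or without FOXD2 replicate 1. The lost region of VIL1 lay inside the gene (chromosome 2, 218435343 to 218435724) with 4.13 and 4.03 in the controls, a call that ended with lists of equal length. The balance there, −1, ran from −2.0 to 1 when 1 library was left out.

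Of the remaining lost regions, that of ATOH1 had the highest fold, 6.71 and 8.10 in the controls, at 66670 bp beyond the 3′ end (chromosome 4, 93897634 to 93897880). That of SPDEF, 12456 bp upstream, had 3.50 and 4.1 in the controls. That of TFF2, 9936 bp from the gene (chromosome 21, 42336111 to 42336421), had 5.00 and 5.84, and that of ALPI, 9423 bp upstream, had 2.40 and 2.97, a call that ended at a −log10 q of 5 and with lists of equal length. None of these 4 regions had an interval in either FOXD2 library.

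Among the 36 regions in all 4 libraries, 9 (25.0%) had both FOXD2 ranks above both control ranks, called higher, and 7 (19.4%) had both below, called lower. Over all 39933 such regions the shares were 19.0% and 19.6%, so these counts do not set the genes apart from the background. The median difference in rank percentile, FOXD2 mean minus control mean, was −0.475 over the 36 regions and −0.276 over all regions assigned to a gene. The 9 higher regions were at CA2 (2), APOB, ALPI, TFF3, MUC5AC, KRT20, MUC13 and CDH17. The 7 lower regions were at DPP4 (2), APOB, ALPI, TFF2, CEACAM6 and CDH17.

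The widest gap among these was at APOB, in a region 38160 bp from the gene (chromosome 2, 20962880 to 20963269). It ranked at 25.6 and 12 in the FOXD2 libraries, against 42.5 and 55.3 in the controls, a difference in means of −30.1. The region over the end of APOB went the other way, with 30.6 and 54.3 in the FOXD2 libraries, against 21.5 and 24.7 in the controls, a difference of 19.3 that was −0.863 with windows around the summits. At ALPI too, a region 16337 bp upstream ranked at 41.1 and 19.1, against 60.3 and 48.1, and a region 11274 bp upstream at 48.9 and 62.2, against 43.7 and 37.2. Regions of the same gene thus differed in opposite directions.

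CDH17, the adhesion gene with most shared regions, also showed both directions. A region 2327 bp beyond its higher-coordinate end (chromosome 8, 94219605 to 94220212) ranked at 67.1 and 80.6 in the FOXD2 libraries, against 53.0 and 62.3 in the controls. A region 46666 bp below the gene (94079688 to 94080496) ranked at 79.5 and 88.8, against 91.5 and 89.5. Its strongest region, 6334 bp below the gene, stood at 89.1 and 92.7, against 93.5 and 89.8, where the groups overlapped. MUC13, which encodes a transmembrane mucin, had no promoter peak but 1 region inside the gene (chromosome 3, 124928520 to 124928997) that ranked at 27.3 and 30.8 in the FOXD2 libraries, against 19.8 and 13 in the controls.

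Of the other regions whose groups did not overlap, the distal one of CA2, 65463 bp from the gene, differed most. It ranked at 14.3 and 22.7 in the FOXD2 libraries, against 8.52 and 2.73 in the controls, a difference in means of 12.9 that was 21.7 when fold enrichment was ranked. KRT20 had a region 18012 bp upstream at 59.2 and 54.9 in the FOXD2 libraries, against 54.6 and 48.2 in the controls. TFF3 had a region 1505 bp from the gene at 36.8 and 33.8, against 18.0 and 31.8, and MUC5AC one 3463 bp from the gene at 36.5 and 45.9, against 35.2 and 23.5. The end of CA2 stood at 90.1 and 89.3, against 89.3 and 87.8, a difference of 1.16 that was −0.783 when fold enrichment was ranked in place of −log10 q. The weak TFF2 region, 7318 bp from the gene, stood at 4.23 and 2.79, against 7.37 and 5.49, and its difference of −2.92 was 21.7 with windows around the summits.

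**Figure D5:**
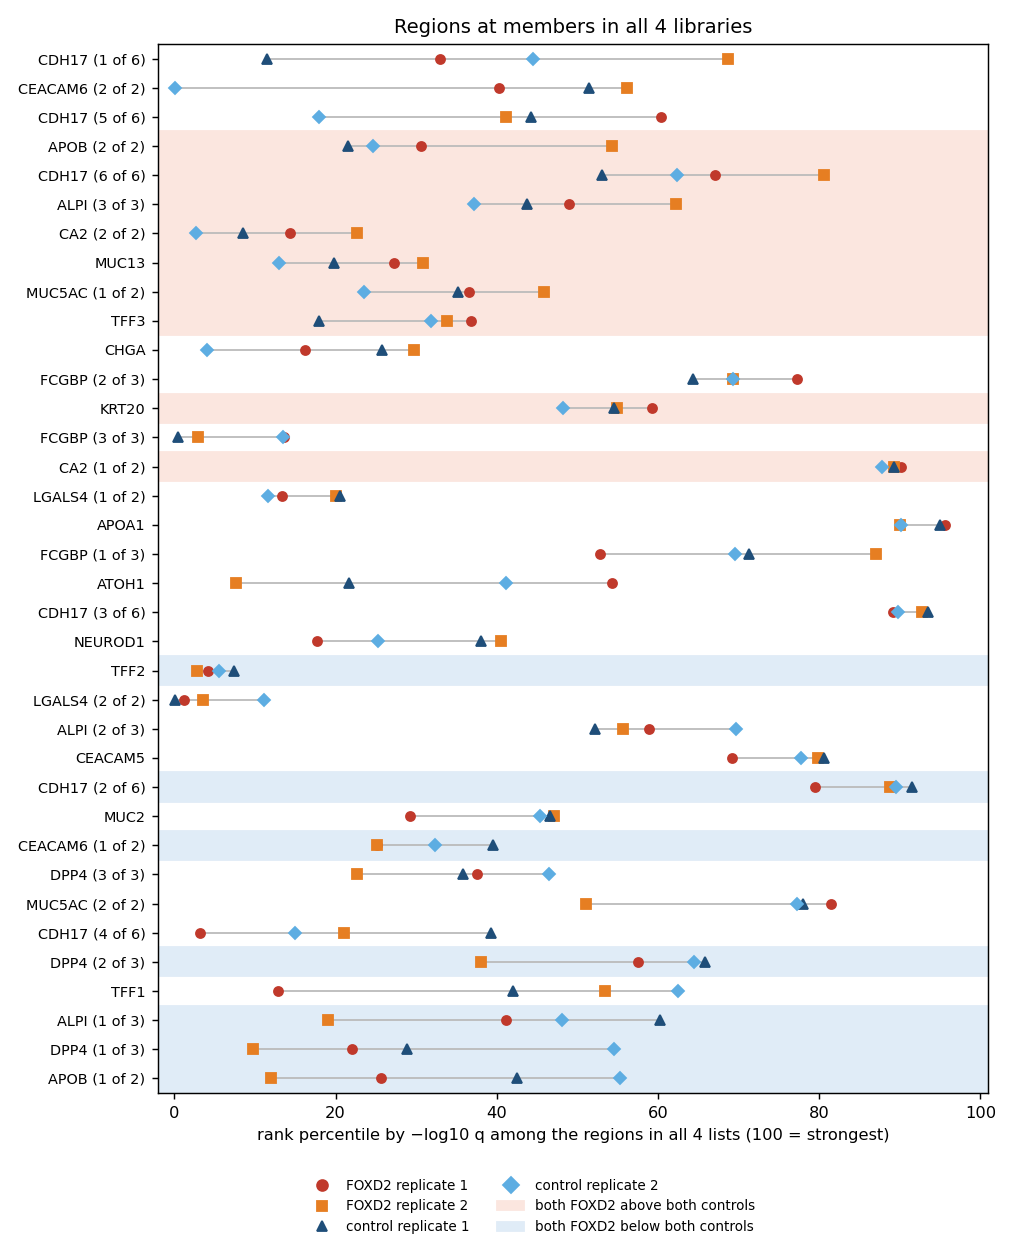
Rank percentile by −log10 q (x axis, 100 strongest among the 39933 regions in all 4 lists) of the 36 shared regions at members in each library, ordered by the FOXD2 mean minus the control mean. Shaded rows are the 9 regions with both FOXD2 libraries above both controls and the 7 with both below, and in the other rows the ranks of the groups overlap.

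The remaining members had few or scattered regions. MUC2 had 15 regions, 9 and 6 in the FOXD2 libraries and 10 and 6 in the controls, of which 1, at 4087 bp beyond its 3′ end, was in all 4 libraries. TFF1 had a single region, 1391 bp below the gene, with a fold of 5.11 and 7.35 in the FOXD2 libraries, against 9.07 and 11.2 in the controls. Both controls were higher in fold there, but the rank percentiles of 12.9 and 53.4, against 42.0 and 62.5, overlapped. MEP1A had a region 2945 bp from the gene (chromosome 6, 46848929 to 46849259) with a fold of 8.45 in FOXD2 replicate 1 and no interval in FOXD2 replicate 2, against 13 and 17.3 in the controls. SLC26A3 had regions in FOXD2 replicate 1 (2) and control replicate 1 (2) and in neither replicate 2. SI and APOA4 had 1 region each, in 1 control, and CA1 and AGR2 had 2 each, none of them in all 4 libraries.

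Other genes of the same lineages, listed by lineage with earlier results of these data known, were also open less often than all genes. The difference was not tested. Promoter peaks in all 4 libraries were found at 8 of 26 other absorptive genes (30.8%), 9 of 22 other goblet genes (40.9%) and 8 of 20 other enteroendocrine genes (40.0%), all below the 66.0% of all genes. Of the genes with a promoter peak in all 4 libraries, those with the strongest shared regions anywhere at the gene were the sulfate transporter gene SLC26A2 (mean rank percentile 94.7), the ezrin gene EZR (94.2), the trehalase gene TREH (89.3) and the triglyceride transfer protein gene MTTP (83.7) in the absorptive list. SYTL2 (86.7), FOXA3 (83.9), the mucin gene MUC1 (80.8) and GALNT12 (80.5) were the strongest such genes of the goblet list. The granin gene SCG2 (82.6), the peptide hormone gene PYY (77.3), the granin gene CHGB (59.9) and the regulator gene NKX2-2 (59.6) were those of the enteroendocrine list. Genes without a promoter peak in all 4 libraries also had strong shared regions, such as CA4 (94.6), ST6GALNAC1 (91.6) and GIP (81.7), the highest such gene of each list, chosen after their values were seen. Gained and lost regions numbered 4 and 4 at the absorptive, 3 and 10 at the goblet and 1 and 3 at the enteroendocrine genes. These were 3.39% and 3.39% of the regions of the absorptive, 2.56% and 8.55% of the goblet and 0.862% and 2.59% of the enteroendocrine list, against 3.89% and 3.87% of all regions. The lost ones of the goblet list included 2 at the transcription factor gene CREB3L1, 2 at SYTL2 and 1 at ITLN1. SYTL2 also had 1 gained region and a promoter peak in all 4 libraries. The promoter peaks of CREB3L1 and ITLN1 were in both controls and neither FOXD2 library. These were 2 of 22 goblet genes, against 0.866% of all genes and 0 in the absorptive and enteroendocrine lists, with no test.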

How the data were processed

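The submitters' processing notes name hg38, MACS2 2.2.7.1, bedtools, Picard, cutadapt 3.4 and Bowtie2 2.3.4.1, without roles or settings. The deposited list of each library, not pooled, gives the authors' fold enrichment (a ratio to local background), −log10 p, −log10 q and a whole-number score for each peak. The −log10 p and the score were not used. The lowest −log10 q was 2.005 to 2.026, so weaker sites could not appear. Intervals on chromosomes 1 to 22 and X were merged at 1 bp of overlap. In a region with several intervals of a library the strongest counted. Ranks were taken within the regions in all 4 lists, since the lists differ in length. Genes, strand (15812 of 19974 genes) and promoter sequences came from RefSeq GRCh38.p14 by symbol, with 32 of 32 members matched. Exons and introns were not used. The steps were tested on simulated lists. Values in every library are given for members with a promoter peak, for each gained or lost region and for shared regions whose groups did not overlap. The members and lists were chosen with earlier results of these data known, and the printed sequences and the CpG and motif counts after seeing the values. Python 3.11.15 and pandas 2.3.3 were used.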

Additional observations from a re-analysis of the deposited data

How the results depend on the processing

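No paired analysis was possible because the labels do not say that libraries of the same number belong together. No result comes from a test, so there is no fit to hold a replicate block. Differences between libraries of the same number were not computed. With −log10 q of 5 or more, 2 regions were gained and 9 lost, with 3.74% and 4.39% of all regions gained and lost. Of the 64 regions inside the genes, 1 was gained and 1 lost. Within 20 kb of the genes 4 were gained and 5 lost. Over all regions at any distance, 3.89% were gained and 3.87% lost, and the shares inside all genes or within 20 kb of them were not counted. Members open in all 4 libraries numbered 13 with a window of 2000 bp. Leaving out each library gave 4 to 27 gained and 14 to 36 lost regions, with 6.18% to 19.5% and 5.93% to 17.0% of all regions gained and lost, and 13 to 18 shared regions ranking higher and 11 to 19 ranking lower, against 32.3% to 35.7% and 33.9% to 36.7% of all shared regions. Across all settings, 51 counts and ratios stayed within 1.5 times of the reported count or within the spread of the libraries. The other 19 did not. Of the 160 rank differences of the 16 named regions under other settings, 3 turned, to −0.863 at the end of APOB and 21.7 at TFF2 with summit windows and to −0.783 at the end of CA2 with fold enrichment. The balance of gained and lost regions turned at FCGBP (−1 without control replicate 1, control replicate 2 or FOXD2 replicate 1) and VIL1 (−2.0 to 1 as each library was left out, 1 without FOXD2 replicate 1). The cause was not tested. With either gene end as the promoter of every gene, an alternative chosen after seeing the data, 9 members were open in all 4 libraries and 12 in none. Without read counts, an absent interval may be a site just under the calling limit.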
